A study of Mus musculus with 16 samples.

Results

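The genes described here are 41 mouse genes of fatty acid oxidation in mitochondria and peroxisomes, taken as the genes of the retina expression table that carry their symbols. All 41 were among the 54532 genes of the table. Of these, 40 reached at least 1 FPKM in at least 4 libraries and were tested with 14953 genes in all, and Cpt1b did not. FPKM is a level in fragments scaled for gene length and for sequencing depth. Whole retinas were taken from mice of the strains C57 and BALBc on day 12 after birth. Hyperoxia meant 75% oxygen from day 7 until day 12, after a first week in room air, and normoxia meant room air for the whole time. There were 4 libraries in each of 4 groups (C57 normoxia, C57 hyperoxia, BALBc normoxia and BALBc hyperoxia), and values are listed below in the order of replicates 1 to 4. Strain and oxygen were the groups' stated differences, and the labels name no allele, transgene or drug. The labels give neither substrain nor sex, and do not say whether the libraries of a group came from separate animals or from pools, so each p-value measures the spread between these libraries, which may be technical.

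Fatty acids are activated to acyl-CoA thioesters, passed into mitochondria by the carnitine shuttle, and shortened there in repeated rounds of dehydrogenation, hydration, a further dehydrogenation and thiolytic cleavage. Electrons from the acyl-CoA dehydrogenases reach the respiratory chain through the electron transfer flavoprotein, while peroxisomes run their own set of enzymes on very long and branched chains. Photoreceptors are known to burn fatty acids beside glucose, and the nuclear receptor PPAR alpha (gene Ppara) is a known activator of many of these genes in liver. The exposure to oxygen used here is an established way to make young retinas lose capillaries.

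Recovered read totals were 16.7 to 29.7 M (mega) per library. Several libraries stood apart within their groups in genes outside fatty acid oxidation. The rod transducin gene Gnat1 was at 612 and 476 FPKM in C57 normoxia replicates 1 and 2 against 2924 and 2223 FPKM in replicates 3 and 4, and at 608 and 1095 FPKM in BALBc hyperoxia replicates 1 and 4 against 2575 and 2804 FPKM in replicates 2 and 3. The lens crystallin gene Cryaa was at 0.089 and 1.16 FPKM in C57 hyperoxia replicates 1 and 2 against 1216 and 107 FPKM in replicates 3 and 4. By their Xist and Ddx3y transcripts, the C57 hyperoxia libraries were all female, the C57 normoxia libraries were male except replicate 4, which held both transcripts, and the BALBc groups were mixed. Summed over 8 endothelial markers, the level ranged from 47.5 to 67.6 FPKM in C57 normoxia, 35.5 to 41.8 in C57 hyperoxia, 34.4 to 44.1 in BALBc normoxia and 19.99 to 32.7 in BALBc hyperoxia. Rod markers of the labelled tissue were abundant in every library, with 8 of 8 markers summing to between 3671 and 11406 FPKM. In bulk retina, fewer cells of a type and less RNA per cell cannot be told apart.

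The carnitine shuttle and the acyl-CoA synthetases held the most abundant of the 41 genes. Cpt1a, which makes acylcarnitines at the outer mitochondrial membrane and sets the pace of long chain import, had the highest mean over all 16 libraries at 64.6 FPKM. Acsl3, a synthetase of the endoplasmic reticulum and lipid droplets, followed at 61.9 FPKM, and Scp2, a peroxisomal thiolase and lipid carrier, at 41.5 FPKM. The ranges over libraries of these 3 genes overlapped. With Scp2, 15 members had means from 10 to 50 FPKM, 19 had means from 2 to 10 FPKM and 5 were under 2 FPKM.

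Of the forms of the first carnitine palmitoyltransferase step, the liver form was far above the others. Cpt1a (ENSMUSG00000024900, chr19:3322334-3385733, plus strand) was at 42.01, 45.8, 72.9 and 71.7 FPKM in normoxia and 62.5, 67.9, 53.8 and 65.4 FPKM in hyperoxia for C57, and at 70.2, 65.1, 62.9 and 71.05 FPKM in normoxia and 60.2, 77.1, 68.2 and 76.8 FPKM in hyperoxia for BALBc. Its lowest libraries were C57 normoxia replicates 1 and 2, and the other 14 libraries lay between 53.8 and 77.1 FPKM, so the groups overlapped. Cpt1c, the brain form, which sits in the endoplasmic reticulum and has little enzyme activity, averaged 5.31 FPKM, and Cpt1b, the muscle form, averaged 0.129 FPKM and was listed at 0 in BALBc hyperoxia replicate 2. In its annotation Cpt1b shares 81.4% of its exon bases with Gm44502 on the same strand. How reads in shared bases were counted is not given, so the level of Cpt1b may be too low. Of the dehydrogenases, named for the chain lengths they take, Acadvl (very long) averaged 31.4 FPKM, Acadm (medium) 16.4, Acadl (long) 6.88 and Acads (short) 2.16. The libraries of Acadvl did not overlap those of Acadm, Acadl or Acads, nor did those of Acadm overlap those of Acadl. In its annotation Acadvl shares 42.9% of its exon bases with Dvl2 on the opposite strand. Whether counting used strand is not given in the sources used here. The level of Acadvl may thus hold reads of Dvl2 or lack reads from the shared bases. The means of the 3 genes of the electron transfer flavoprotein route were 18.5 FPKM for Etfa, 2.54 FPKM for Etfb and 3.3 FPKM for Etfdh. Etfb shares 53% of its exon bases with Gm45233 on the same strand, so its level may also be too low.

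**Figure D1:**
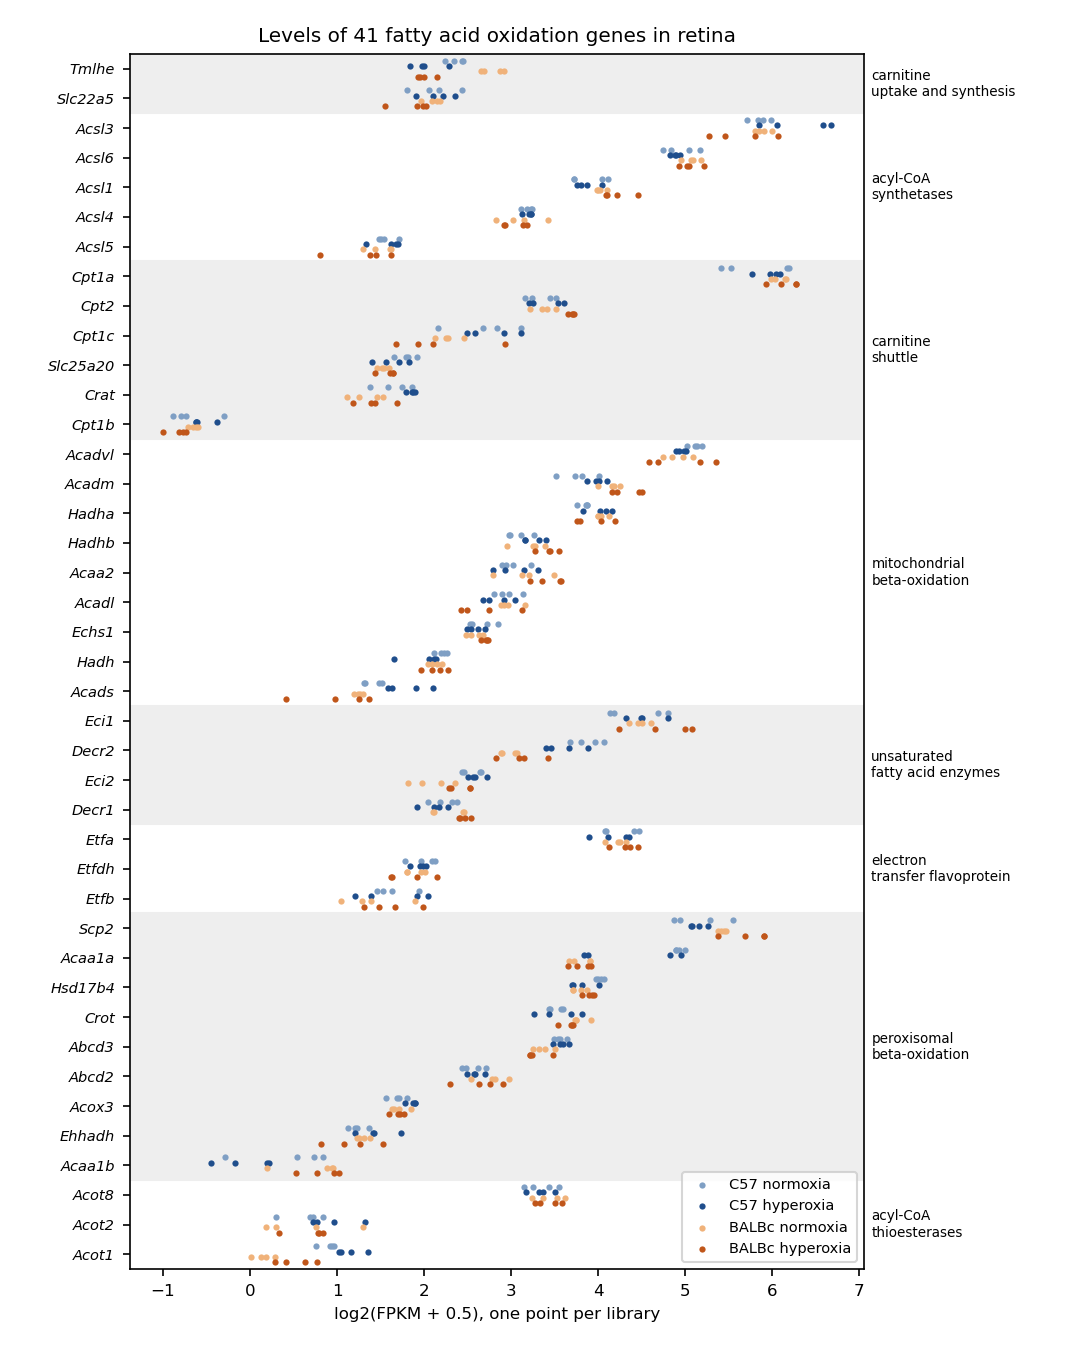
Level of each of the 41 genes, as log2(FPKM + 0.5) on the horizontal axis, with 1 point per library coloured by group and genes ordered by role. Cpt1a and Acsl3 lie furthest to the right and Cpt1b furthest to the left, and for most genes the 4 groups overlap.

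Promoter sequences are shown for the 5 members with the smallest p for strain averaged over both oxygen conditions, since strain set apart more members than oxygen did. Each covers 250 bases before to 50 bases after a RefSeq start of the gene (GRCm38.p6). The windows of Scp2 and Acaa1a lie inside the annotated genes (chr4:108043839-108144998 and chr9:119339676-119350299), so the annotated 5' ends were not covered. Capitals mark the hexamer AGGTCA, or TGACCT on the other strand, that nuclear receptors such as PPAR alpha bind in pairs. The Acadm promoter at chr3:153944594-153944893 (minus strand) held 1 hexamer and that of Scp2 at chr4:108118498-108118797 (minus strand) also held 1. The promoters of Decr2 at chr17:26090115-26090414 (minus strand), Acot1 at chr12:84009252-84009551 (plus strand) and Acaa1a at chr9:119341044-119341343 (plus strand) held none in this window.
Acadm: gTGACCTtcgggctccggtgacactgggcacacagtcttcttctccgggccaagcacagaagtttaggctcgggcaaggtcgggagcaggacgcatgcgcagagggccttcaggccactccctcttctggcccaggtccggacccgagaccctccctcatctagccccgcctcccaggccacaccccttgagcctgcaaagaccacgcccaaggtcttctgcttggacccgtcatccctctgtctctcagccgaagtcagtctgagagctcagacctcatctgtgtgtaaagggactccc
Scp2: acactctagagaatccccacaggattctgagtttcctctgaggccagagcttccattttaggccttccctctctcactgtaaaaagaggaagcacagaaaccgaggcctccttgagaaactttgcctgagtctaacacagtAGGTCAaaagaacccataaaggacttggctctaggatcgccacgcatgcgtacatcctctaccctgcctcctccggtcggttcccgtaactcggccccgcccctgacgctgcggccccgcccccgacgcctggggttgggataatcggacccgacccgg
Decr2: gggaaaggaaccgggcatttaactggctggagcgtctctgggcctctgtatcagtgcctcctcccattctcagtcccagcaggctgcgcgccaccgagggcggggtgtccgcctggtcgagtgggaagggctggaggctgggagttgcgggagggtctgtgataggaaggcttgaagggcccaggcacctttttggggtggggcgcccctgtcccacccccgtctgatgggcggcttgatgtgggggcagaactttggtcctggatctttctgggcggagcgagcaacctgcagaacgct
Acot1: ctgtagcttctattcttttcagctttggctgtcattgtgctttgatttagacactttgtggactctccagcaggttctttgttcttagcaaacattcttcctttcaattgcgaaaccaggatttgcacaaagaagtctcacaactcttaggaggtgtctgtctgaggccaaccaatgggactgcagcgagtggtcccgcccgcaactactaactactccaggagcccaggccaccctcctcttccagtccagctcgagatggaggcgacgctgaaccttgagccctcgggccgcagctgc
Acaa1a: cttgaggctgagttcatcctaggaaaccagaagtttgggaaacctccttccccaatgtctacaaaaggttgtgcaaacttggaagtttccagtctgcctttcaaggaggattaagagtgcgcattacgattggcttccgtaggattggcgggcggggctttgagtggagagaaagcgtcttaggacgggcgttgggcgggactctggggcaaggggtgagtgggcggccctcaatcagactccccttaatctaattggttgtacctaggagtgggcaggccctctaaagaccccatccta
The hexamer was found in 7 of 38 promoters listed for 34 of the 41 genes (18.4%), those of Acadm, Acadvl, Acsl6, Cpt1a, Cpt1c, Echs1 and Scp2, against 16.3% of all 32851 promoters of the same length. The paired form, a direct repeat of the hexamer with 1 base between, searched on both strands, was in none of the 38 and in 13 of all promoters. At 0.0396% of all promoters, it was too rare for its absence from the 38 to set these genes apart. Inexact copies and sites outside the window were not searched. A match is a description of the letters and shows no binding.

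From day 7 to day 12 in high oxygen, the shares of fatty acid oxidation genes past a threshold were near those of all genes in both strains, and 1 gene, Tmlhe, passed the adjusted test. In C57, 0 of 40 tested members passed an adjusted p of 0.05 in limma, where 0.334% of all tested genes did. At an unadjusted p under 0.05 there were 5 members, beside 13.3% of all tested genes, and voom on recovered reads also called 0. In BALBc, 1 of 40 members passed, Tmlhe, which was lower in hyperoxia, where 0.161% of all tested genes passed and 0.0736% passed as lower. At an unadjusted p under 0.05 there were 4 members in BALBc, beside 14.2% of all tested genes, and voom also called 1. The median log2 difference of the 40 members was 0.022 in C57 and 0.044 in BALBc, beside 0.0083 and -0.0048 for all tested genes. All 40 members in C57 and 39 of 40 in BALBc, Tmlhe being the exception, had an estimated difference within 1.5-fold, beside 94.1% and 92.6% of all tested genes. No overlap between the oxygen groups was seen for 3 members in C57 (Acadvl, Acads and Acot1; 7.63% of all tested genes) and for 4 in BALBc (Crot, Cpt2, Tmlhe and Acot1; 8.82%), shares of members of 7.5% and 10%.

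**Figure D2:**
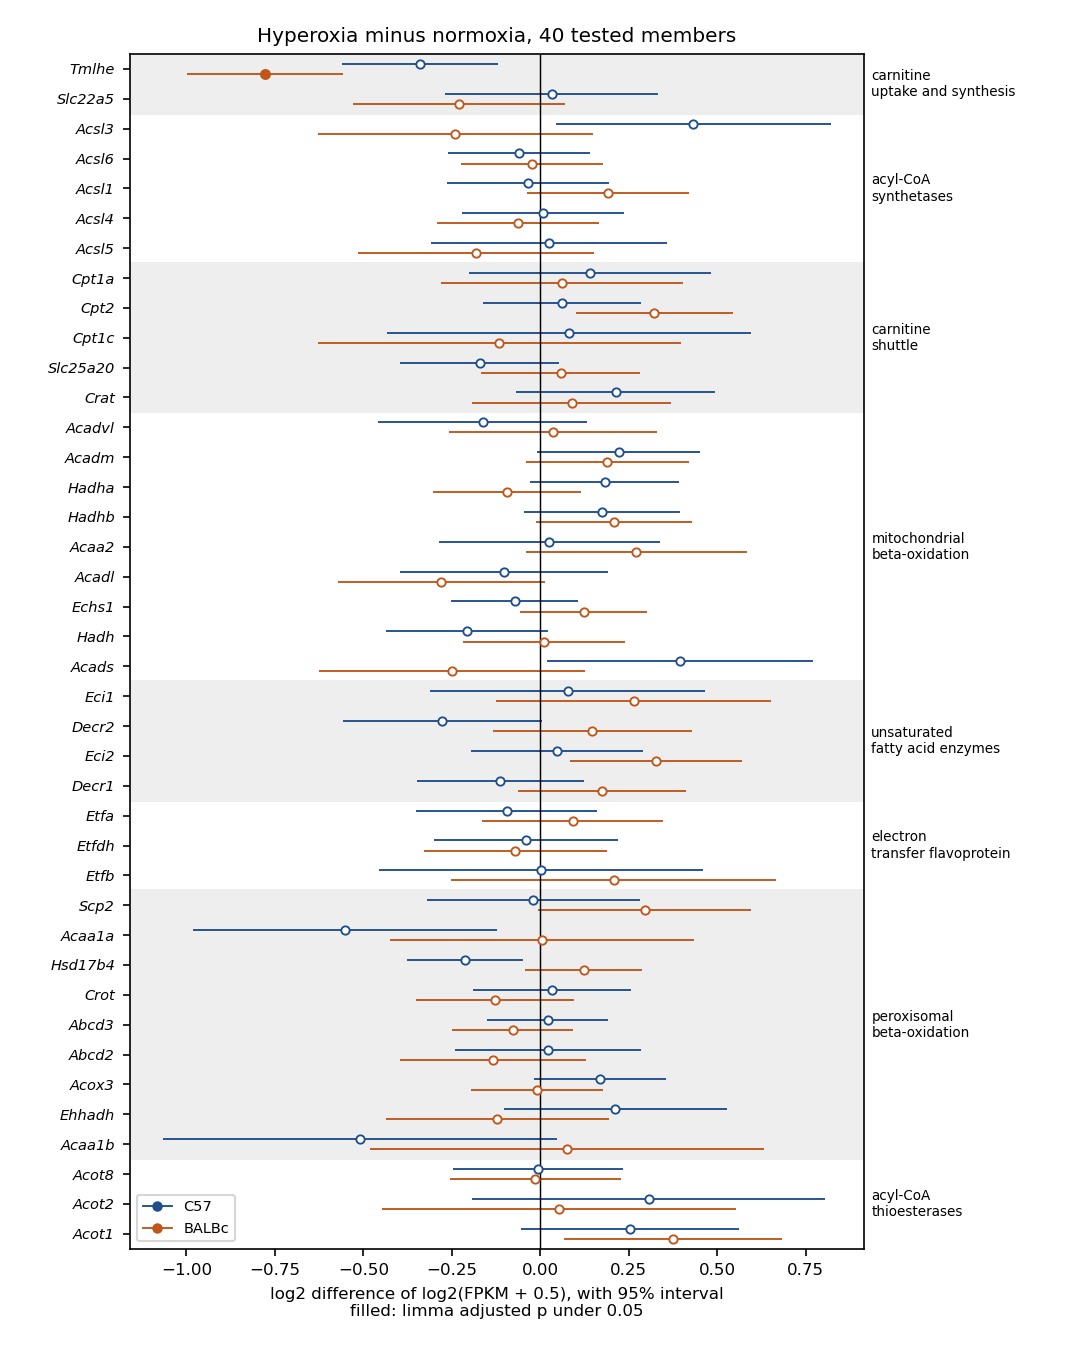
Hyperoxia minus normoxia for the 40 tested members, as the log2 difference of log2(FPKM + 0.5) with its 95% interval, in C57 (blue) and BALBc (orange), with filled points for a limma adjusted p under 0.05. Tmlhe in BALBc, at -0.78, is the filled point, and most of the other intervals include 0.

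Tmlhe encodes trimethyllysine dioxygenase, the first enzyme of carnitine synthesis, and lies on the scaffold GL456233.1 from 159647 to 334183 (plus strand, ENSMUSG00000079834). It was at 4.91, 4.96, 4.57 and 4.21 FPKM in normoxia and 3.51, 3.06, 4.38 and 3.44 FPKM in hyperoxia for C57, and at 5.78, 5.97, 6.85 and 7.07 FPKM in normoxia and 3.5, 3.31, 3.92 and 3.38 FPKM in hyperoxia for BALBc. The 4 BALBc normoxia libraries were the highest of all 16, and no BALBc hyperoxia library came near them. In C57 the normoxia libraries were also mostly higher, but hyperoxia replicate 3 lay among them. The strains differed in normoxia, by 0.42 (SE 0.10, limma adjusted p = 0.018), a call that was lost without C57 normoxia replicate 4 or BALBc normoxia replicate 3 or 4 (limma adjusted p up to 0.0632) and under TPM scaling (limma adjusted p = 0.184). The mean fell from 6.42 ± 0.639 FPKM to 3.53 ± 0.273 FPKM in BALBc (SD, n = 4), a log2 difference of -0.78 (SE 0.10, limma adjusted p = 0.00824). In C57 the means were 4.66 ± 0.347 FPKM and 3.6 ± 0.555 FPKM (SD, n = 4), a log2 difference of -0.34 (SE 0.10, limma adjusted p = 0.161), which did not pass. The difference between the strains' responses was -0.44 (SE 0.15, limma adjusted p = 0.38), with a 95% interval of -0.75 to -0.13, and did not pass after adjustment. Averaged over strains, Tmlhe was the 1 member of 40 called, at -0.56 (SE 0.073, limma adjusted p = 0.00484), where 1.79% of all tested genes were called and 0.749% were called lower. At an unadjusted p under 0.05 there were 6 members, beside 17.3% of all tested genes. The call in BALBc was lost when BALBc normoxia replicate 4 was left out (adjusted p = 0.0522 in limma) and when only the BALBc libraries were fitted (adjusted p = 0.0672). Because the C57 groups differed in sex, a fit with a sex covariate was run, and the adjusted p in BALBc was then 0.00733. In C57 the value was then -0.42 (limma adjusted p = 0.594), and sex and oxygen nearly coincided there, so this fit separates them poorly. With the covariate, calls over all tested genes went from 50 to 0 in C57 and from 268 to 15 averaged over strains, where Tmlhe stayed called. In BALBc, markers of blood and vessel cells and of several other cell types had estimates in the same direction. Summed over 5 erythroid markers, the level was 53.3 to 256 FPKM in BALBc normoxia, 20.1 to 81.5 in BALBc hyperoxia, 29.2 to 62.0 in C57 normoxia and 28.2 to 75.4 in C57 hyperoxia, so its median was highest in BALBc normoxia, as for Tmlhe. All 4 tested erythroid markers were below 0 in BALBc hyperoxia (median log2 difference -1.63, each with an unadjusted p under 0.05, 0 called), and in normoxia all 4 were above 0 for BALBc against C57 (median 1.45, 1 called). All 7 tested endothelial markers were below 0 in both strains, with 1 called in BALBc, 0 in C57 and 3 averaged over strains. In normoxia all 7 were also below 0 for BALBc against C57 (median -0.61, 1 called), the other way from Tmlhe. Of 5 tested mural cell markers 4 were below 0 in each strain, and 2 were called averaged over strains. For hyperoxia in BALBc, 6 of 7 Müller glia, 4 of 6 cone and all 6 amacrine, 6 bipolar and 6 ganglion cell markers were below 0. Above 0 there were all 6 lens, all 5 pigment epithelium, 4 of 5 microglia and 5 of 8 rod markers. The part of these cells in the Tmlhe difference was not tested. Slc22a5, the carnitine importer of the plasma membrane, ranged from 2.42 to 4.9 FPKM with overlapping groups and was not called in any comparison.

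In the shuttle itself, Cpt2, which turns acylcarnitines back into acyl-CoA inside the mitochondrion, was at 8.95, 8.43, 10.9 and 10.4 FPKM in normoxia and 9.06, 8.74, 11.1 and 11.7 FPKM in hyperoxia for C57, and at 10.1, 10.9, 9.76 and 8.79 FPKM in normoxia and 12.7, 12.1, 12.6 and 12.4 FPKM in hyperoxia for BALBc. All 4 BALBc hyperoxia libraries were above every BALBc normoxia library, while the C57 groups overlapped. Its log2 difference in BALBc was 0.32 (SE 0.10, limma adjusted p = 0.18), the second smallest p of the 40 members there, and did not pass. Eci2, an isomerase that moves double bonds so that unsaturated chains can be oxidised, came next at 0.33 (SE 0.11, limma adjusted p = 0.207), likewise short of the threshold. Hadha, the large subunit of the trifunctional protein that runs the later steps on long chains, was at 14.2, 14.1, 14.1 and 13.1 FPKM in normoxia and 16.6, 17.3, 13.6 and 15.8 FPKM in hyperoxia for C57, and at 16.995, 15.5, 15.5 and 15.9 FPKM in normoxia and 15.9, 13.3, 13.1 and 17.8 FPKM in hyperoxia for BALBc. C57 normoxia libraries were tight and mostly low, and both hyperoxia groups overlapped their normoxia groups. Acadl was at 6.47, 6.93, 7.35 and 8.28 FPKM in normoxia and 7.06, 6.23, 7.73 and 5.9 FPKM in hyperoxia for C57, and at 7.04, 6.86, 8.42 and 7.29 FPKM in normoxia and 5.13, 6.23, 8.23 and 4.87 FPKM in hyperoxia for BALBc. BALBc hyperoxia replicates 1 and 4 were the lowest of the 16 and replicate 3 was among the highest, so no group stood apart.

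In C57 the members with the smallest p after Tmlhe were both peroxisomal. Hsd17b4, the bifunctional enzyme that hydrates and dehydrogenates peroxisomal acyl-CoA, had a log2 difference of -0.21 (SE 0.077, limma adjusted p = 0.236), and -0.11 without both C57 hyperoxia replicates 1 and 2. Acaa1a, the peroxisomal thiolase that ends each round, had -0.55 (SE 0.20, limma adjusted p = 0.236), a value that rested on replicates 1 and 2 of C57 hyperoxia. Without both of them, an alternative chosen after seeing the data, it was -0.039 (limma adjusted p = 0.928). Averaged over strains, the members with the smallest p after Tmlhe were Acot1, at 0.31 (SE 0.10, limma adjusted p = 0.125), and Acadm, at 0.21 (SE 0.077, limma adjusted p = 0.18), and neither passed.

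The test of whether the strains responded differently called 0 of 40 members and 0 of all 14953 tested genes, at 5 members and 9.56% of genes with an unadjusted p under 0.05, and voom called 0 members as well. The 3 members with the smallest p were Hsd17b4 at 0.33 (SE 0.11, limma adjusted p = 0.379), Tmlhe as given above and Acsl3 at -0.67 (SE 0.26, limma adjusted p = 0.446). Their 95% intervals were 0.10 to 0.57 for Hsd17b4 and -1.22 to -0.12 for Acsl3. The value of Acsl3 was -0.33 without both C57 hyperoxia replicates 1 and 2 and -0.39 without both BALBc hyperoxia replicates 2 and 3. The test does not show that the strains responded alike.

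Strain separated more of these genes than oxygen did, in both directions. In normoxia, 6 of 40 members (15%) differed, 2 higher and 4 lower in BALBc, where 9.08% of all tested genes differed, 4.7% higher and 4.38% lower. In hyperoxia, 11 of 40 (27.5%) differed, 5 higher and 6 lower, where 22.6% of all tested genes did, 11.8% higher and 10.8% lower. Averaged over oxygen, 12 of 40 (30%) differed, 4 higher and 8 lower, where 29% of all tested genes did, 15.1% higher and 13.9% lower. Shares for hyperoxia and for the mean were thus near those of all genes. Members called in both oxygen conditions were Decr2, Acot1 and Acadm. The lowest member in BALBc was Acaa1a in normoxia and Acads in hyperoxia, and medians over the 40 members were 0.0079 and -0.022, beside 0.012 and 0.0079 for all tested genes. Groups did not overlap for 10 members in normoxia (25%; 18% of all tested genes) and for 11 in hyperoxia (27.5%; 21.4%). The count in hyperoxia fell from 11 to 5 without C57 hyperoxia replicate 1, 6 without C57 hyperoxia replicate 2, and 4, 7 and 6 without BALBc hyperoxia replicate 2, 3 and 4. Calls over all tested genes fell too, from 3380 to 2326, 2454, 2454, 2536 and 2364 in the same order. Without both of C57 hyperoxia replicates 1 and 2 the member count was 5, beside 1726 of all tested genes. Without both of BALBc hyperoxia replicates 2 and 3 it was 3, beside 2066. In normoxia the member count was 3 without BALBc normoxia replicate 4, where calls over all tested genes went from 1358 to 941. A sex covariate (the Ddx3y level), used because the C57 groups differed in sex, left 5 calls in normoxia and 7 in hyperoxia, beside 7.43% and 14.1% of all tested genes. The settings that ended a call are given beside each member, with its value where that moved by over 1.5-fold. Those that leave out 2 libraries were chosen after seeing the data. Calls of genes other than the members, given further below, were not checked under these settings. The rod covariate is the mean level of 8 rod markers. With it, 5 members were called in normoxia, 8 in hyperoxia and 9 averaged over oxygen. The shares of all tested genes were then 10.1%, 22.6% and 23.9%. Under TPM scaling, which moved the median difference of all genes to -0.16 in hyperoxia and -0.11 averaged over oxygen, the calls were 1 higher and 7 lower in hyperoxia and 2 higher and 8 lower averaged over oxygen. Over all tested genes they were then 947 higher and 2079 lower in hyperoxia and 1221 higher and 2738 lower averaged over oxygen.

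**Figure D3:**
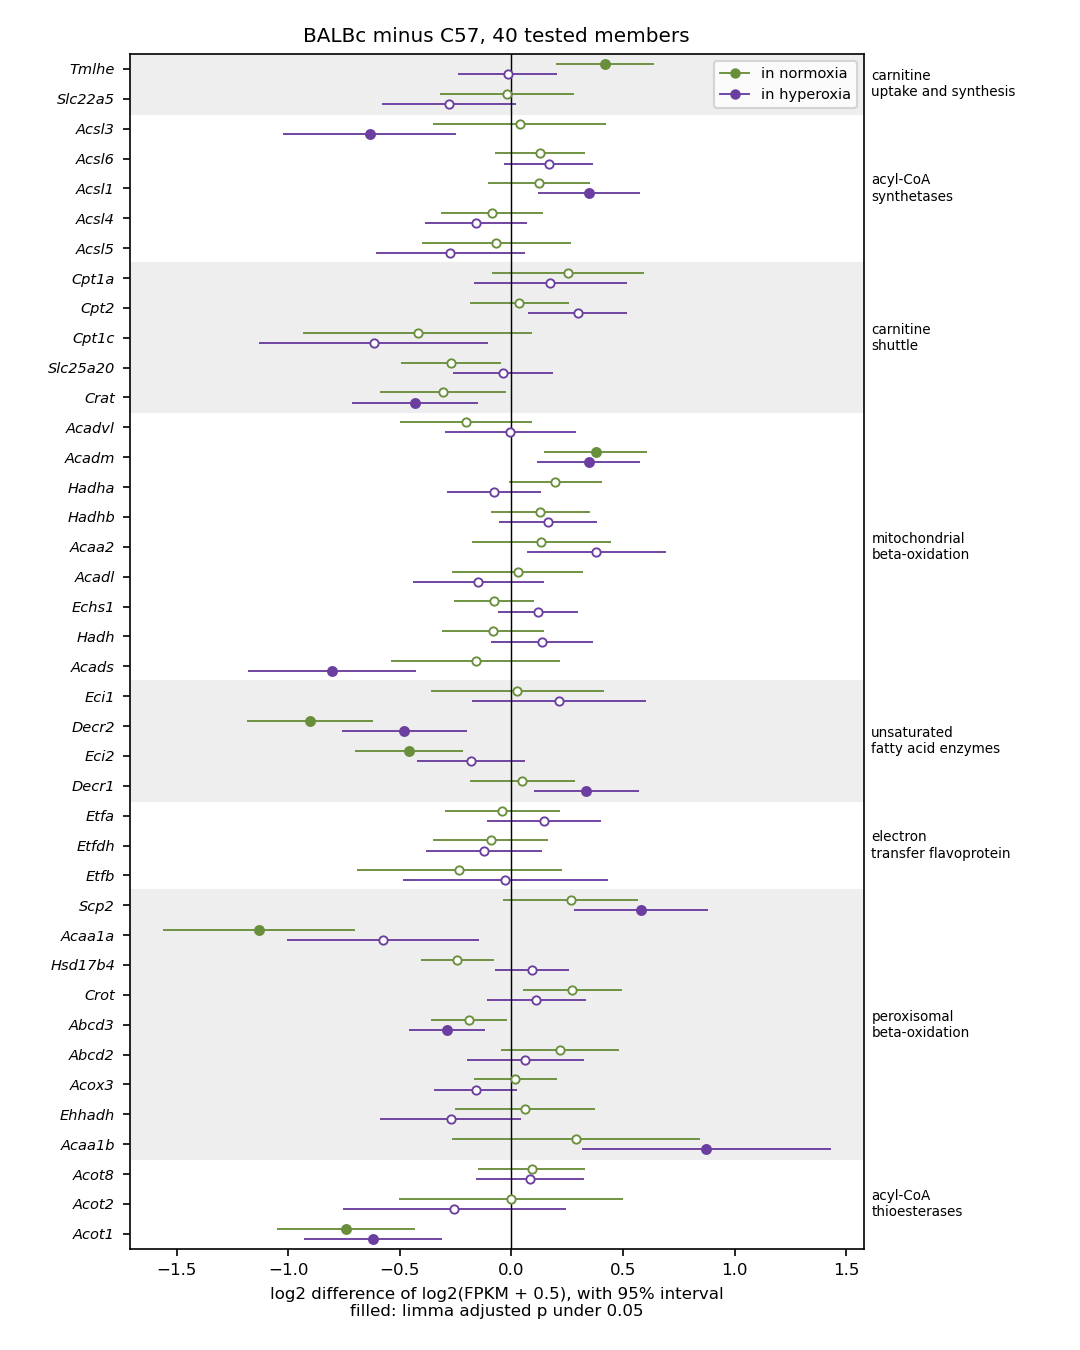
BALBc minus C57 for the 40 tested members, as the log2 difference of log2(FPKM + 0.5) with its 95% interval, in normoxia (green) and hyperoxia (purple), with filled points for a limma adjusted p under 0.05. Decr2, Acot1 and Acadm are filled in both conditions, and Acaa1a in normoxia lies furthest to the left.

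Among the enzymes for unsaturated chains, Decr2 and Eci2 were lower in BALBc. Decr2, the peroxisomal 2,4-dienoyl-CoA reductase (ENSMUSG00000036775, chr17:26081208-26090337, minus strand), was at 13.5, 12.3, 16.3 and 15.2 FPKM in normoxia and 10.1, 10.5, 14.3 and 12.2 FPKM in hyperoxia for C57, and at 6.95, 7.76, 6.88 and 7.92 FPKM in normoxia and 6.58, 10.2, 8.37 and 8.03 FPKM in hyperoxia for BALBc. Every BALBc normoxia library was below every C57 normoxia library, while in hyperoxia the highest BALBc library, replicate 2, passed the lowest C57 one. The log2 difference was -0.90 (SE 0.13, limma adjusted p = 0.00029) in normoxia, -0.48 (SE 0.13, limma adjusted p = 0.0177) in hyperoxia and -0.69 (SE 0.093, limma adjusted p = 6.33e-05) averaged over both. In hyperoxia the call was lost without C57 hyperoxia replicate 3 (limma adjusted p up to 0.0536) and also with the sex covariate and when only the groups compared were fitted (limma adjusted p 0.0603 to 0.0671). Eci2 was at 5.79, 5.73, 4.99 and 4.91 FPKM in normoxia and 6.11, 5.17, 5.51 and 5.41 FPKM in hyperoxia for C57, and at 4.64, 3.42, 4.09 and 3.02 FPKM in normoxia and 5.28, 4.4, 4.46 and 5.25 FPKM in hyperoxia for BALBc. In normoxia the strains did not overlap and BALBc was lower, and in hyperoxia they overlapped. Its difference was -0.46 (SE 0.11, limma adjusted p = 0.0187) in normoxia and -0.32 (SE 0.081, limma adjusted p = 0.00829) averaged over oxygen. The normoxia call was lost without C57 normoxia replicate 1 or 2 or BALBc normoxia replicate 2 or 4 (limma adjusted p up to 0.0653) and also under TPM scaling, when only the groups compared were fitted and without both C57 normoxia replicates 1 and 2 (limma adjusted p 0.0546 to 0.201). The averaged call was lost without both C57 normoxia replicates 1 and 2 (limma adjusted p = 0.0534). Decr1, the mitochondrial reductase of the same reaction as Decr2, was at 4.71, 3.62, 4.51 and 4.03 FPKM in normoxia and 3.27, 4.0, 4.33 and 3.84 FPKM in hyperoxia for C57, and at 3.81, 4.98, 4.95 and 3.83 FPKM in normoxia and 4.83, 4.79, 5.31 and 5.02 FPKM in hyperoxia for BALBc. It went the other way: all 4 BALBc hyperoxia libraries were above the C57 hyperoxia libraries, by 0.34 (SE 0.11, limma adjusted p = 0.0409). That call was near the threshold. It was lost with no filter on low values, under TPM scaling, at 0.20, with voom, with the sex covariate, with the rod covariate, when only the groups compared were fitted, without both C57 hyperoxia replicates 1 and 2 and without both BALBc hyperoxia replicates 2 and 3 (limma adjusted p 0.0641 to 0.353). Among single libraries it was lost without C57 normoxia replicate 4 or C57 hyperoxia replicate 1, 2 or 4 or BALBc hyperoxia replicate 2, 3 or 4 (limma adjusted p up to 0.123).

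Acaa1a (ENSMUSG00000036138, chr9:119339676-119350299, plus strand) had the largest difference of the members between the strains in normoxia and split the C57 hyperoxia group. It was at 31.5, 30.1, 29.2 and 29.3 FPKM in normoxia and 14.3, 13.8, 27.9 and 30.5 FPKM in hyperoxia for C57, and at 14.5, 12.7, 14.5 and 12.2 FPKM in normoxia and 14.3, 12.05, 13.04 and 14.6 FPKM in hyperoxia for BALBc. C57 hyperoxia replicates 1 and 2 were at the BALBc level and replicates 3 and 4 near the level of C57 normoxia, with no library between. In normoxia the strains did not overlap, and the means were 30.01 ± 1.03 FPKM in C57 and 13.5 ± 1.21 FPKM in BALBc (SD, n = 4), a log2 difference of -1.13 (SE 0.20, limma adjusted p = 0.00167). In hyperoxia the difference was -0.57 (SE 0.20, limma adjusted p = 0.0525) with all libraries, short of the threshold, and -1.09 (limma adjusted p = 1.27e-05) without C57 hyperoxia replicates 1 and 2. It passed in 7 of 30 alternatives, among them voom, at -0.61 (adjusted p = 0.0361), and the fits without C57 hyperoxia replicate 1 or 2 alone, at -0.74 and -0.75 (limma adjusted p = 0.0217 and 0.0159). Over all 30 the difference ranged from -1.09 to -0.38 and the adjusted p from 1.27e-05 to 0.242. The smallest difference came without C57 hyperoxia replicate 4. Averaged over oxygen it was -0.85 (SE 0.14, limma adjusted p = 0.00045). The neighbour Myd88, an adaptor of innate immune receptors, shares 290 exon bases with Acaa1a on the opposite strand and was at 1.5, 1.42, 2.98 and 2.24 FPKM in C57 hyperoxia, against 2.37, 2.09, 2.44 and 2.54 FPKM in C57 normoxia. Acvr2b, an activin receptor gene further along the chromosome, was at 9.96, 10.4, 5.08 and 5.76 FPKM in C57 hyperoxia. Of 6 neighbouring genes with means of 1 FPKM or more, 3 had replicates 1 and 2 on one side of replicates 3 and 4, Myd88 and 4930516B21Rik lower and Acvr2b higher, and 3 did not (Oxsr1, Xylb and Exog). These neighbours were looked at after the Acaa1a values were seen. The share of all genes split in this way was not computed, so the count of 3 of 6 does not set this stretch apart. The same 2 libraries held little lens crystallin RNA, as given above, and the cause of the split was not tested.

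Acaa1b, a second peroxisomal thiolase with a sequence close to that of Acaa1a, was at 1.16, 0.949, 0.321 and 1.29 FPKM in normoxia and 0.232, 0.384, 0.647 and 0.662 FPKM in hyperoxia for C57, and at 1.35, 0.646, 1.42 and 1.44 FPKM in normoxia and 1.45, 1.2, 0.941 and 1.54 FPKM in hyperoxia for BALBc. BALBc hyperoxia libraries were all above the C57 hyperoxia libraries, and in normoxia the strains overlapped. The difference was 0.87 (SE 0.26, limma adjusted p = 0.0262) in hyperoxia, on levels near 1 FPKM, and 0.58 (SE 0.19, limma adjusted p = 0.0281) averaged over oxygen. Calls for Acaa1b were lost in hyperoxia without C57 hyperoxia replicate 1 or 2 or BALBc hyperoxia replicate 2 or 4 (limma adjusted p up to 0.0803) and averaged over oxygen without C57 hyperoxia replicate 1 or BALBc normoxia replicate 1, 3 or 4 or BALBc hyperoxia replicate 4 (limma adjusted p up to 0.0568). Both calls also rested on other choices: the hyperoxia call was lost with no filter on low values, under TPM scaling, without both C57 hyperoxia replicates 1 and 2 and without both BALBc hyperoxia replicates 2 and 3 (limma adjusted p 0.0507 to 0.212), and the averaged call with no filter on low values, under TPM scaling and without both C57 hyperoxia replicates 1 and 2 (limma adjusted p 0.0556 to 0.118). With voom the values were 1.45 and 0.98 (adjusted p = 0.0456 and 0.0313). Of its 50-base windows, 30.5% also occur in Acaa1a, so reads of the pair may be divided uncertainly, and Acaa1a shares 12.4% of its windows.

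Another pair of peroxisomal proteins differed in opposite directions. Scp2 was at 30.1, 28.8, 46.5 and 38.4 FPKM in normoxia and 33.3, 32.9, 37.8 and 35.3 FPKM in hyperoxia for C57, and at 40.97, 43.9, 43.1 and 42.1 FPKM in normoxia and 41.2, 59.6, 59.7 and 50.99 FPKM in hyperoxia for BALBc. In hyperoxia every BALBc library was above every C57 library, and in normoxia C57 replicate 3 was the highest of the 8, so the strains overlapped. The difference was 0.58 (SE 0.14, limma adjusted p = 0.00948) in hyperoxia and 0.42 (SE 0.10, limma adjusted p = 0.00554) averaged over oxygen. With the rod covariate the averaged value was 0.23 (adjusted p = 0.00442). Without BALBc hyperoxia replicates 2 and 3, the 2 highest libraries, the difference in hyperoxia was 0.39 (limma adjusted p = 0.123), and without C57 hyperoxia replicates 1 and 2 it was 0.51 (adjusted p = 0.0864). Abcd3, a membrane transporter that brings acyl-CoA into peroxisomes, was at 11.1, 11.3, 10.8 and 11.97 FPKM in normoxia and 12.2, 10.7, 11.6 and 11.3 FPKM in hyperoxia for C57, and at 9.02, 10.8, 9.98 and 9.5 FPKM in normoxia and 10.7, 8.78, 8.94 and 8.83 FPKM in hyperoxia for BALBc. In hyperoxia no BALBc library reached a C57 library, although BALBc replicate 1 and C57 replicate 2 were nearly equal. The difference was -0.29 (SE 0.081, limma adjusted p = 0.0186) in hyperoxia and -0.24 (SE 0.057, limma adjusted p = 0.00559) averaged over oxygen. In hyperoxia it no longer passed without C57 hyperoxia replicate 1 or BALBc hyperoxia replicate 2 or 4 (limma adjusted p up to 0.0573), nor with the sex covariate, when only the groups compared were fitted, without both C57 hyperoxia replicates 1 and 2 and without both BALBc hyperoxia replicates 2 and 3 (limma adjusted p 0.0646 to 0.148). Under TPM scaling it was -0.47 in hyperoxia and -0.37 averaged over oxygen (adjusted p = 0.0337 and 0.0144). The branched chain oxidase Acox3, the carnitine octanoyltransferase Crot, the bifunctional enzymes Ehhadh and Hsd17b4 and the second importer Abcd2 were not called between strains.

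In mitochondria, the medium and short chain dehydrogenases differed in opposite directions. Acadm (ENSMUSG00000062908, chr3:153922357-153944632, minus strand) was at 12.8, 10.96, 15.7 and 13.6 FPKM in normoxia and 14.2, 15.2, 16.7 and 15.6 FPKM in hyperoxia for C57, and at 17.4, 15.5, 17.7 and 18.5 FPKM in normoxia and 17.4, 21.7, 22.1 and 18.04 FPKM in hyperoxia for BALBc. BALBc hyperoxia libraries were the highest as a group and did not overlap with C57 hyperoxia, while in normoxia C57 replicate 3 reached into the BALBc range. BALBc was higher by 0.38 (SE 0.11, limma adjusted p = 0.0409) in normoxia, 0.35 (SE 0.11, limma adjusted p = 0.0329) in hyperoxia and 0.36 (SE 0.077, limma adjusted p = 0.00271) averaged over oxygen. The normoxia call was lost with no filter on low values, with the sex covariate, with the rod covariate, at 0.25, when only the groups compared were fitted and without both C57 normoxia replicates 1 and 2, at 0.23 (limma adjusted p 0.0642 to 0.333). The hyperoxia call was lost with no filter on low values, under TPM scaling, at 0.18, when only the groups compared were fitted, without both C57 hyperoxia replicates 1 and 2 and without both BALBc hyperoxia replicates 2 and 3, at 0.20 (limma adjusted p 0.0574 to 0.311). Single libraries decided both calls, which were lost in normoxia without C57 normoxia replicate 1, 2 or 4 or C57 hyperoxia replicate 2 or BALBc normoxia replicate 1, 3 or 4 (limma adjusted p up to 0.125) and in hyperoxia without C57 hyperoxia replicate 1 or 2 or BALBc hyperoxia replicate 2 or 3 (limma adjusted p up to 0.0977), while the call averaged over oxygen was kept without any 1 library. Acads (ENSMUSG00000029545, chr5:115110299-115119346, minus strand) was at 2.01, 2.37, 2.3 and 1.98 FPKM in normoxia and 2.51, 2.59, 3.25 and 3.79 FPKM in hyperoxia for C57, and at 1.87, 1.96, 1.9 and 1.8 FPKM in normoxia and 2.08, 0.828, 1.47 and 1.88 FPKM in hyperoxia for BALBc. Every BALBc library was below every C57 library of the same oxygen condition, narrowly in normoxia. The difference was -0.16 in normoxia, which was not called, -0.80 (SE 0.18, limma adjusted p = 0.00518) in hyperoxia and -0.48 (SE 0.13, limma adjusted p = 0.00967) averaged over oxygen. In hyperoxia the value was -0.50 (limma adjusted p = 0.0422) without both BALBc hyperoxia replicates 2 and 3, of which replicate 2 was the lowest library of all. The averaged call was lost with the rod covariate (limma adjusted p = 0.0521). The change of the strain difference with oxygen was -0.64 (SE 0.25, limma adjusted p = 0.451), or -0.34 without those 2 libraries, and did not pass. A deletion in Acads is known in the BALB/cByJ substrain, and the labels do not give the substrain of the mice used here. Acadvl, Acadl, Hadha, Hadhb, Echs1, Hadh and Acaa2, the rest of the mitochondrial spiral, were not called between strains in any condition, nor were Etfa, Etfb and Etfdh.

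Of the synthetases, which activate fatty acids, 2 of 5 were called between strains in hyperoxia, in opposite directions. Of all tested genes 22.6% were called there. Acsl3 was at 62.7, 59.1, 51.8 and 56.7 FPKM in normoxia and 95.4, 101, 65.9 and 56.96 FPKM in hyperoxia for C57, and at 59.6, 57.3, 63.7 and 55.6 FPKM in normoxia and 66.6, 38.2, 43.6 and 55.4 FPKM in hyperoxia for BALBc. C57 hyperoxia replicates 1 and 2 were far above the other 14 libraries, which ranged from 38.2 to 66.6 FPKM, and the strains overlapped. The difference in hyperoxia was -0.64 (SE 0.18, limma adjusted p = 0.0216). It was lost when only the groups compared were fitted, without both C57 hyperoxia replicates 1 and 2, at -0.30, and without both BALBc hyperoxia replicates 2 and 3, at -0.35 (limma adjusted p 0.0944 to 0.288). Among single libraries it was lost without C57 hyperoxia replicate 1 or 2 or BALBc hyperoxia replicate 2 or 3 (limma adjusted p up to 0.0726). Acsl1, the main long chain synthetase of fat, heart and liver, was at 12.8, 12.7, 16.02 and 16.8 FPKM in normoxia and 13.4, 13.01, 14.2 and 15.98 FPKM in hyperoxia for C57, and at 16.6, 15.8, 15.4 and 15.3 FPKM in normoxia and 16.6, 18.1, 16.7 and 21.5 FPKM in hyperoxia for BALBc. BALBc hyperoxia libraries were all above C57 hyperoxia libraries, the nearest pair lying close together. Its difference was 0.35 (SE 0.11, limma adjusted p = 0.0301) in hyperoxia and 0.24 (SE 0.076, limma adjusted p = 0.0303) averaged over oxygen. The hyperoxia call was lost with no filter on low values, under TPM scaling, at 0.19, with the sex covariate, with the rod covariate, when only the groups compared were fitted, without both C57 hyperoxia replicates 1 and 2 and without both BALBc hyperoxia replicates 2 and 3 (limma adjusted p 0.0528 to 0.264), and the averaged call with no filter on low values, under TPM scaling, at 0.11, with the rod covariate, at 0.15, without both C57 hyperoxia replicates 1 and 2 and without both C57 normoxia replicates 1 and 2, at 0.15 (limma adjusted p 0.0506 to 0.314). With single libraries left out, the calls for Acsl1 were lost in hyperoxia without C57 hyperoxia replicate 1, 2 or 3 or BALBc hyperoxia replicate 2 or 4 (limma adjusted p up to 0.0969) and averaged over oxygen without C57 normoxia replicate 1 or 2 or C57 hyperoxia replicate 1 or 2 or BALBc normoxia replicate 1 or BALBc hyperoxia replicate 4 (limma adjusted p up to 0.0647).

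Of the shuttle genes, Crat and Cpt1c were lower in BALBc. Crat, which makes acetylcarnitine and so buffers acetyl-CoA, was at 2.85, 3.12, 2.11 and 2.5 FPKM in normoxia and 3.23, 2.97, 3.12 and 3.16 FPKM in hyperoxia for C57, and at 2.25, 2.38, 1.88 and 1.66 FPKM in normoxia and 2.71, 2.12, 2.22 and 1.77 FPKM in hyperoxia for BALBc. In hyperoxia the strains did not overlap, and in normoxia they did. The difference was -0.43 (SE 0.13, limma adjusted p = 0.0298) in hyperoxia and -0.37 (SE 0.094, limma adjusted p = 0.0086) averaged over oxygen. Its hyperoxia call was lost without C57 hyperoxia replicate 1, 2, 3 or 4 or BALBc hyperoxia replicate 2, 3 or 4 (limma adjusted p up to 0.091) and also with no filter on low values, with the sex covariate, with the rod covariate, when only the groups compared were fitted, without both C57 hyperoxia replicates 1 and 2 and without both BALBc hyperoxia replicates 2 and 3 (limma adjusted p 0.0538 to 0.119). The averaged call was lost without both C57 normoxia replicates 1 and 2 (limma adjusted p = 0.0586). Under TPM scaling the hyperoxia value was -0.65 (adjusted p = 0.0465). Cpt1c was at 6.63, 8.16, 3.98 and 5.92 FPKM in normoxia and 5.52, 5.13, 8.17 and 7.06 FPKM in hyperoxia for C57, and at 5.0, 3.87, 4.25 and 4.36 FPKM in normoxia and 7.15, 2.69, 3.32 and 3.81 FPKM in hyperoxia for BALBc. Its libraries were widely spread, with BALBc hyperoxia replicate 1 far above the other 3 of its group, and the strains overlapped. It was called averaged over oxygen and in no other comparison, at -0.52 (SE 0.17, limma adjusted p = 0.0329). That call was lost with no filter on low values, with the rod covariate, at -0.22, without both C57 normoxia replicates 1 and 2 and without both BALBc hyperoxia replicates 2 and 3, at -0.34 (limma adjusted p 0.0694 to 0.201). Leaving out 1 library ended that call without C57 normoxia replicate 1 or 2 or C57 hyperoxia replicate 3 or 4 or BALBc normoxia replicate 2, 3 or 4 or BALBc hyperoxia replicate 2, 3 or 4 (limma adjusted p up to 0.070). Slc25a20, the carrier that swaps acylcarnitine for carnitine across the inner membrane, ranged from 2.65 to 3.28 FPKM in C57 normoxia and 2.25 to 2.52 FPKM in BALBc normoxia without overlap, but was not called.

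Thioesterases release free fatty acid from acyl-CoA, and 1 of the 3 measured was called between strains. Of all tested genes 9.08% were called in normoxia, 22.6% in hyperoxia and 29% averaged over oxygen. Acot1, the cytosolic form (ENSMUSG00000072949, chr12:84009490-84018371, plus strand), was at 1.41, 1.38, 1.45 and 1.19 FPKM in normoxia and 1.73, 1.57, 2.06 and 1.53 FPKM in hyperoxia for C57, and at 0.636, 0.716, 0.59 and 0.508 FPKM in normoxia and 0.834, 1.2, 1.05 and 0.72 FPKM in hyperoxia for BALBc. Every BALBc library was below every C57 library of the same oxygen condition, and in each strain every hyperoxia library was above every normoxia library. BALBc was lower by -0.74 (SE 0.15, limma adjusted p = 0.00355) in normoxia, -0.62 (SE 0.15, limma adjusted p = 0.00755) in hyperoxia and -0.68 (SE 0.10, limma adjusted p = 0.000177) averaged over oxygen. With voom the values were -1.16 in normoxia and -1.04 averaged over oxygen, and under TPM scaling -0.94 in hyperoxia, all of them called. The oxygen differences, 0.25 in C57 and 0.37 in BALBc, did not pass (limma adjusted p = 0.486 and 0.259). Acot2, the mitochondrial neighbour of Acot1, and the peroxisomal Acot8 were not called. Acot1 and Acot2 share 13.6% and 24.5% of their 50-base windows, so their counts may be divided uncertainly.

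**Figure D4:**
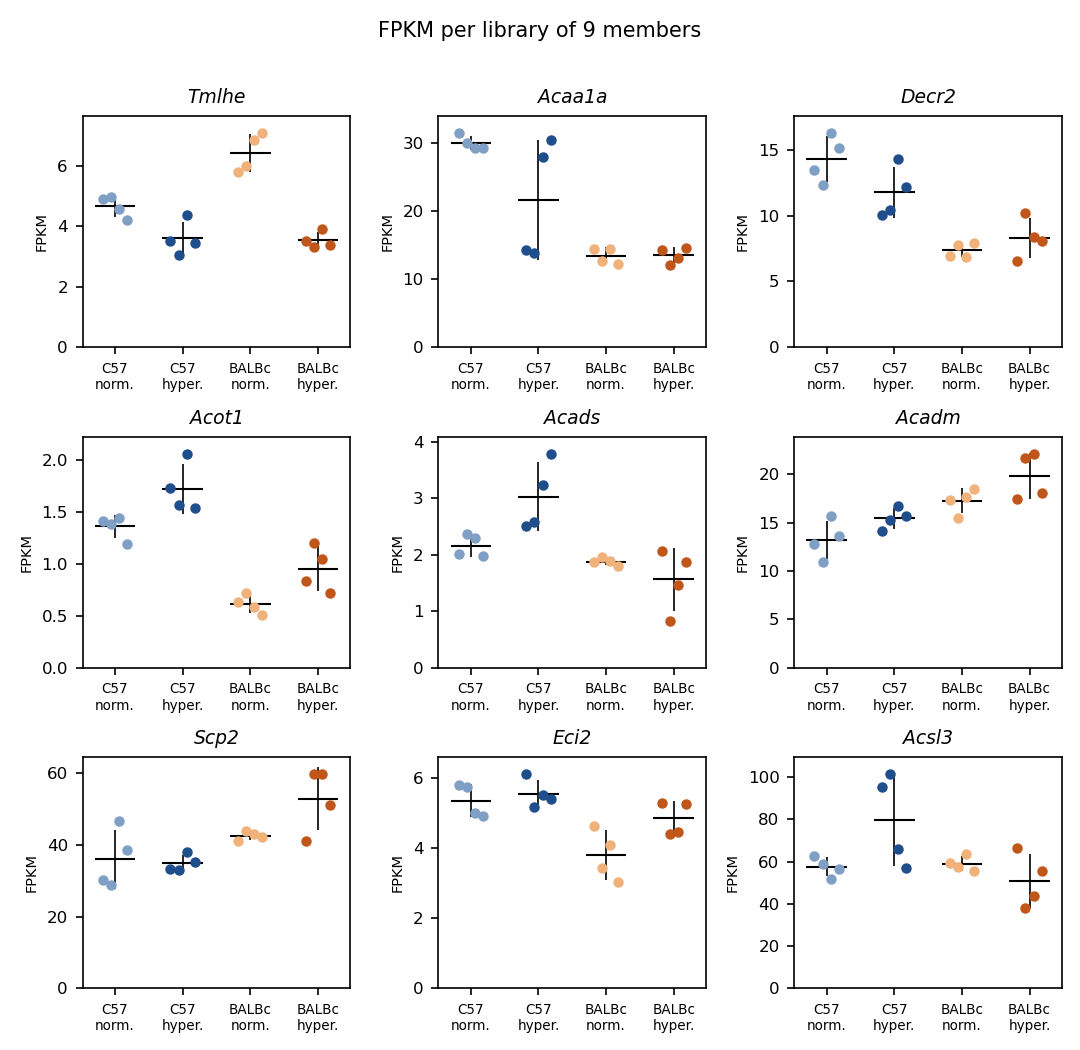
FPKM of 9 members in each of the 16 libraries, with a point per library, a horizontal line at the group mean and a vertical line for 1 SD either side (n = 4). Acaa1a shows C57 hyperoxia libraries at 2 levels, near 14 and near 30 FPKM, Tmlhe is highest in BALBc normoxia, and Acot1 is lower in BALBc than in C57 in each oxygen condition.

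Among the regulators, Ppara had a larger strain difference than any of the 41 genes. It was at 3.32, 3.5, 5.73 and 5.61 FPKM in normoxia and 6.18, 5.7, 2.97 and 3.99 FPKM in hyperoxia for C57, and at 0.026, 0.0472, 0.0841 and 0.0506 FPKM in normoxia and 0.0376, 0.014, 0.0752 and 0.025 FPKM in hyperoxia for BALBc. It was near 0 in all 8 BALBc libraries and between 2.97 and 6.18 FPKM in all 8 C57 libraries. The log2 difference was -3.15 (SE 0.21, limma adjusted p = 4.95e-08) in normoxia and -3.23 (SE 0.21, limma adjusted p = 3.34e-08) in hyperoxia, and the added 0.5 makes it smaller than the ratio of the means. Of 12 regulator genes 10 were tested, and 0 were called for oxygen in C57 or in BALBc and 0 for the difference of the responses. In normoxia 2 were higher and 1 lower in BALBc, with Acacb, the acetyl-CoA carboxylase that makes the malonyl-CoA inhibiting Cpt1 forms, at 1.0 (SE 0.16, limma adjusted p = 0.000679) and Ppargc1b, a coactivator of PPAR and ERR receptors, at 0.72 (SE 0.17, limma adjusted p = 0.0147). In hyperoxia 4 were higher and 2 lower, among them Acacb at 0.79 (SE 0.16, limma adjusted p = 0.00313), Ppargc1b at 0.70 (SE 0.17, limma adjusted p = 0.00922) and Acaca, the other carboxylase, at 0.44 (SE 0.14, limma adjusted p = 0.0315). For strain averaged over oxygen, 4 were higher and 1 lower. Of all tested genes, 4.7% were higher and 4.38% lower in normoxia, 11.8% and 10.8% in hyperoxia, and 15.1% and 13.9% averaged over oxygen. Esrra, the receptor ERR alpha, a known activator of Acadm, was at 11.9, 10.4, 11.9 and 10.7 FPKM in normoxia and 14.9, 13.5, 14.3 and 17.3 FPKM in hyperoxia for C57, and at 11.4, 11.7, 10.8 and 10.7 FPKM in normoxia and 11.4, 11.96, 13.2 and 13.4 FPKM in hyperoxia for BALBc. It was the 1 regulator called for oxygen averaged over strains, at 0.28 (SE 0.061, limma adjusted p = 0.0332). Of all tested genes 1.79% were called there. The C57 groups, which differed in sex, did not overlap for Esrra, while the BALBc groups did. With the sex covariate, calls over all tested genes in that comparison fell from 268 to 15. The calls of regulators, Esrra among them, were not checked under the alternatives.

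Other genes of the route had no call for oxygen. Of 57 further fatty acid oxidation genes 39 were tested, and 0 were called for oxygen in C57, in BALBc or averaged over strains, or for the difference of the responses. Between strains, 1 was called in normoxia, Phyh, the peroxisomal hydroxylase that starts alpha-oxidation of phytanic acid. Phyh was at 18.3, 16.7, 24.3 and 24.7 FPKM in normoxia and 18.9, 19.6, 23.96 and 22.6 FPKM in hyperoxia for C57, and at 36.1, 37.5, 35.8 and 34.7 FPKM in normoxia and 29.1, 43.6, 40.9 and 32.6 FPKM in hyperoxia for BALBc. All 8 BALBc libraries were above all 8 C57 libraries, by 0.79 (SE 0.14, limma adjusted p = 0.00189) in normoxia and 0.76 (SE 0.14, limma adjusted p = 0.00185) in hyperoxia. In hyperoxia 4 of the 39 were higher in BALBc and 2 lower, with Phyh followed by Acat1, the mitochondrial thiolase of ketone bodies, at 0.64 (SE 0.16, limma adjusted p = 0.0109), Ech1, an isomerase for dienoyl-CoA, at 0.38 (SE 0.11, limma adjusted p = 0.0264) and Echdc1 at 0.52 (SE 0.16, limma adjusted p = 0.0298). All 17 peroxisome biogenesis genes tested were outside the calls for oxygen and for strain in normoxia, and in hyperoxia 1 was higher in BALBc, Pex10, an import factor of the peroxisome membrane, at 0.46 (SE 0.14, limma adjusted p = 0.032). For strain averaged over oxygen, 3 of the 17 were called higher in BALBc and 0 lower. Of the 39 further genes, 3 were then higher and 4 lower, where 15.1% of all tested genes were higher and 13.9% lower. The shares of all tested genes were 4.7% higher and 4.38% lower in normoxia, and 11.8% and 10.8% in hyperoxia. Markers of other cells were also called between strains in hyperoxia. There 5 of 7 tested endothelial, 3 of 7 Müller glia and 4 of 6 amacrine markers were called lower in BALBc. Called higher were 3 of 5 pigment epithelium, 3 of 6 cone, 2 of 5 microglia and 1 of 8 rod markers. All 8 rod markers had estimates above 0 there (median log2 difference 0.35). Of bipolar, ganglion cell, mural, lens and erythroid markers 0 were called. None of these markers was at 0 in all libraries. Summed Müller glia markers were 788 to 1051 FPKM in C57 hyperoxia and 513 to 755 FPKM in BALBc hyperoxia, and pigment epithelium markers 96.5 to 166 FPKM and 67.7 to 382 FPKM. Amacrine markers summed to 106 to 119 FPKM and 50.3 to 85.4 FPKM, cone markers to 206 to 241 FPKM and 254 to 387 FPKM, and microglia markers to 15.4 to 20.7 FPKM and 19.3 to 32.4 FPKM. Their part in the strain differences of the fatty acid oxidation genes was not tested.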

How the data were processed

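Per the labels' protocols, retina RNA was isolated with TRIzol and sequenced from NEBNext Ultra II libraries. The submitters' processing notes name HISAT2 2.0.5, featureCounts 1.5.0-p3 and GRCm38 (mm10), and the strand setting is not given in the sources used here. The authors deposited FPKM values for 54532 genes in 16 libraries. Whole reads were recovered from the FPKM steps with GENCODE M21 exon lengths: 97.1% to 97.5% of values up to 1000 reads came out whole within 0.01, and totals were 16.7 to 29.7 M (mega) reads.

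The 14953 genes at 1 FPKM or more in 4 or more libraries were fitted as log2(FPKM + 0.5) with limma 3.58.1 (R 4.3.3), in 1 model of the 4 groups with empirical Bayes moderation and a trend. The 7 comparisons were two-sided, with Benjamini-Hochberg adjustment over all tested genes and a threshold of 0.05, and called means past it. Log2 differences understate changes of genes near 0.5 FPKM, and fold values refer to that scale. Log2 differences were printed for called members, otherwise for the 3 with the smallest p, and levels per library for called members and for Cpt1a, Cpt2, Acadm, Acadl and Hadha. Genes of the other lists were named when called, at most 4 per list and comparison, by p, and were only counted for strain averaged over oxygen. The members and lists were chosen with earlier results of these data known. Alternatives were 11 settings, each of 16 libraries left out in turn, and 3 settings added after seeing the data. They included voom on the recovered reads, with trimmed-mean scaling. The fit was tested on simulated data, in which libraries were independent and all genes had the same dispersion. Differences within groups or in sex, as seen here, were not simulated.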

Additional observations from a re-analysis of the deposited data

Results flagged for a closer look

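Of 76 groups of 4 libraries screened, which were 19 members in 4 groups each, 3 held a library far from its others, with a gap to the nearest other library above Dixon's 95% critical value. Chance gives about 1 such group in 20. Hadha was at 13.1 FPKM in C57 normoxia replicate 4, below 3 libraries near 14 FPKM. Abcd3 was at 10.7 FPKM in BALBc hyperoxia replicate 1, above the other libraries of its group. Acaa1b was at 0.646 FPKM in BALBc normoxia replicate 2, below the other libraries of its group. No difference between the strains' responses to oxygen passed the adjusted test for any of the 40 members. The split of Acaa1a in C57 hyperoxia into a pair of low and a pair of high libraries is not of the kind this screen finds.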

How the results depend on the processing

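Counts of called members were compared over the alternatives. The strain count in hyperoxia was 11, and it was 6 with no filter on low values, 7 with a sex covariate, 4 when only the groups compared were fitted, 5 without C57 hyperoxia replicates 1 and 2 and 3 without BALBc hyperoxia replicates 2 and 3. Calls over all tested genes went from 3380 to 2970, 2102, 2003, 1726 and 2066 in the same order. With no filter, 34541 genes were tested. The BALBc hyperoxia count of 1 became 3 with a covariate of rod expression, adding Scp2 and Eci1, where all tested genes went from 0.161% to 5.64%, and 0 when only the BALBc groups were fitted. The count averaged over strains went from 1 to 3 with the rod covariate, adding Scp2 and Acadm, where all tested genes went from 1.79% to 9.32%. With 1 library left out, the counts were 0 to 0 for C57 hyperoxia, 0 to 1 for BALBc hyperoxia, 0 to 0 for the difference of the responses, 3 to 7 for strain in normoxia, 4 to 12 for strain in hyperoxia, 1 to 1 for oxygen averaged over strains and 9 to 13 for strain averaged over oxygen. Calls over all tested genes moved as well. They ranged from 903 to 1502 for strain in normoxia and 2326 to 4244 in hyperoxia. For oxygen averaged over strains they were 89 to 484, and for strain averaged over oxygen 3635 to 4988. Of 1232 values for single genes under the alternatives, 1088 kept their direction and side of the threshold, 137 lost the call, 7 gained it and 0 changed sign. Libraries with the same replicate number were compared by their deviations from the group mean. The correlations ranged from -0.50 to 0.40 over 24 pairs, 6 of them above 0.1. Differences within groups, as for Gnat1, also enter these correlations, so they do not settle whether the libraries were paired. A fit with the replicate number as a block called 0, 1, 0, 6, 11, 1 and 12 members in C57 hyperoxia, BALBc hyperoxia, the difference of the responses, strain in normoxia, strain in hyperoxia, oxygen averaged over strains and strain averaged over oxygen. Of all tested genes it called 1, 22, 0, 1273, 3319, 249 and 4249 in the same order. TPM scaling moved the median difference of all genes to -0.16 for BALBc hyperoxia and for strain in hyperoxia and to -0.11 for both averaged comparisons. Members under 2 FPKM rest on few reads, and 8 reads were the least for Acaa1b. The causes of these changes were not tested.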
